A study of Mus musculus with 6 samples.

Results

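A set of 10 genes of the gp130 cytokine and JAK-STAT3 pathway were followed in whole retinas of wild type (WT) and Wfs1-KO mice. They were chosen by name and comprised the ligand genes Lif and Cntf, the receptor genes Il6st, Lifr, Osmr and Cntfr, the Janus kinase genes Jak1 and Jak2, Stat3, and the feedback inhibitor Socs3. All 10 were among the 55376 genes of the deposited count table, and all 10 passed the filter on low counts among 18547 genes in all. The WT group and the Wfs1-/- group (Wfs1-KO) held 3 retinas each, from different mice aged 240 days, given no agent. The mutant allele lacks exon 8 of Wfs1 in every cell of the animal, so that it cannot assign a difference to 1 retinal cell type. The labels name a C57x129 strain for both groups, whereas the methods name a C57BL/6J background. Wfs1 encodes wolframin, a membrane protein of the endoplasmic reticulum, and its loss causes Wolfram syndrome with optic atrophy.

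Cytokines of the interleukin-6 family signal through receptor complexes that share the subunit gp130, the product of Il6st. LIF binds gp130 with the LIF receptor, oncostatin M binds gp130 with the oncostatin M receptor or the LIF receptor, and CNTF needs in addition the CNTF receptor alpha subunit, which has no kinase-binding tail of its own. The bound complex activates Janus kinases, which phosphorylate STAT3, and STAT3 enters the nucleus and raises transcription of genes that include its own inhibitor Socs3. In the retina this pathway is known for the response of Müller glia and astrocytes to injury and for the protection of photoreceptors by LIF and CNTF. Activity of STAT3 is set by phosphorylation, which RNA levels do not measure.

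The retinas were first compared for quality. Total counts ranged from 17916885 to 101334381 per retina, and 3 counts corresponded to between 0.0291 and 0.170 CPM (counts scaled to library size with TMM factors). Wfs1 had between 61.4 and 69.9 CPM in WT retinas and 9.63, 0.900 and 11.5 CPM in Wfs1-KO replicates 1, 2 and 3. Wfs1-KO replicate 2 stood apart, with a mean Pearson correlation of 0.918 to the other retinas across the tested genes, against 0.962 to 0.971 for the rest, and the fold changes of the 10 genes and of the lists are therefore also given without it. WT replicate 3 differed from the others in sex, with 1137 counts of the Y-linked Ddx3y against at most 2 elsewhere. The 5 rod markers, which define the tissue as retina, summed to between 60791 and 68673 CPM in WT retinas. In Wfs1-KO replicate 2 rod markers were lowest at 45183 CPM, while blood markers reached 480 CPM, pigment epithelium markers 269 CPM, microglia or macrophage markers 181 CPM, Müller glia markers 7602 CPM and neutrophil markers 1.63 CPM. The other 2 mutant retinas had between 20.1 and 22.7 CPM of blood markers, 26.2 to 50.8 CPM of pigment epithelium markers, 28.4 to 41.7 CPM of microglia or macrophage markers, 5156 to 5466 CPM of Müller glia markers and 0.116 to 0.182 CPM of neutrophil markers. The WT ranges of these 5 lists, in the same order, were 12.3 to 41.2, 62.4 to 94.9, 29.6 to 36.5, 5655 to 6319 and 0.114 to 0.151 CPM. In Wfs1-KO replicate 2 a single gene carried the sum of each of 2 lists, Apoe the Müller glia sum with 3627 CPM and Ttr the pigment epithelium sum with 234 CPM. Without Apoe the other 6 Müller glia markers summed to 3975 CPM there, the lowest of the 6 retinas, to 4405 and 4742 CPM in the other mutants and to between 5037 and 5347 CPM in WT. Glul was the largest part of these sums, with 1949 CPM there, 2325 and 2683 CPM in the other mutants and 2967 to 3245 CPM in WT. The markers did not all go the same way in Wfs1-KO replicate 2. Glul, Dkk3, Kcnj10 and Aqp4 were lowest there, Rlbp1 was highest at 665 CPM, and Slc1a3 (208 CPM) lay within its WT range. Without Ttr the other 4 pigment epithelium markers summed to 34.6 CPM there, within the WT range of 19.1 to 36.2 CPM. In the other mutants they summed to between 9.13 and 11.5 CPM, below that range. Markers of lens (1.25 to 1.45 CPM in WT, 1.70 to 2.55 CPM in Wfs1-KO) and of oligodendrocytes (35.6 to 43.2 CPM in WT, 44.8 to 49.9 CPM in Wfs1-KO) did not overlap between genotypes. Ganglion cell markers (803 to 940 CPM in WT, 711 to 1078 CPM in Wfs1-KO) and vascular markers (186 to 242 CPM in WT, 212 to 257 CPM in Wfs1-KO) overlapped. No marker list had a gene at 0 in all 6 retinas. In whole tissue, fewer cells of a type and less RNA per cell cannot be told apart.

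In WT retinas the CNTF receptor gene and Jak1 had the highest levels among the 10 genes chosen by name. To compare genes with one another, levels were divided by exon length (RPKM). Cntfr, the alpha receptor for CNTF, had 36.5 ± 6.62 RPKM (SD, n = 3) and Jak1, the principal kinase of gp130 receptors, had 36.4 ± 5.90 RPKM, and their ranges overlapped. Il6st had 11.9 ± 1.63 RPKM, Jak2 had 10.997 ± 1.31 RPKM and Stat3 had 10.3 ± 0.53 RPKM, each overlapping its neighbour in this order. Lifr followed with 6.69 ± 1.55 RPKM, Cntf with 3.12 ± 0.55 RPKM, Socs3 with 1.95 ± 0.14 RPKM and Osmr with 1.29 ± 0.32 RPKM. Lif was last, with 0.171 ± 0.0050 RPKM. From Stat3 downwards the WT ranges of neighbouring genes did not overlap. Among the levels of all tested genes, Cntfr lay at percentile 90.6 and Lif at percentile 7.32. Levels per length also carry differences in mappability and isoform use, which counts per gene do not separate.

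**Figure D1:**
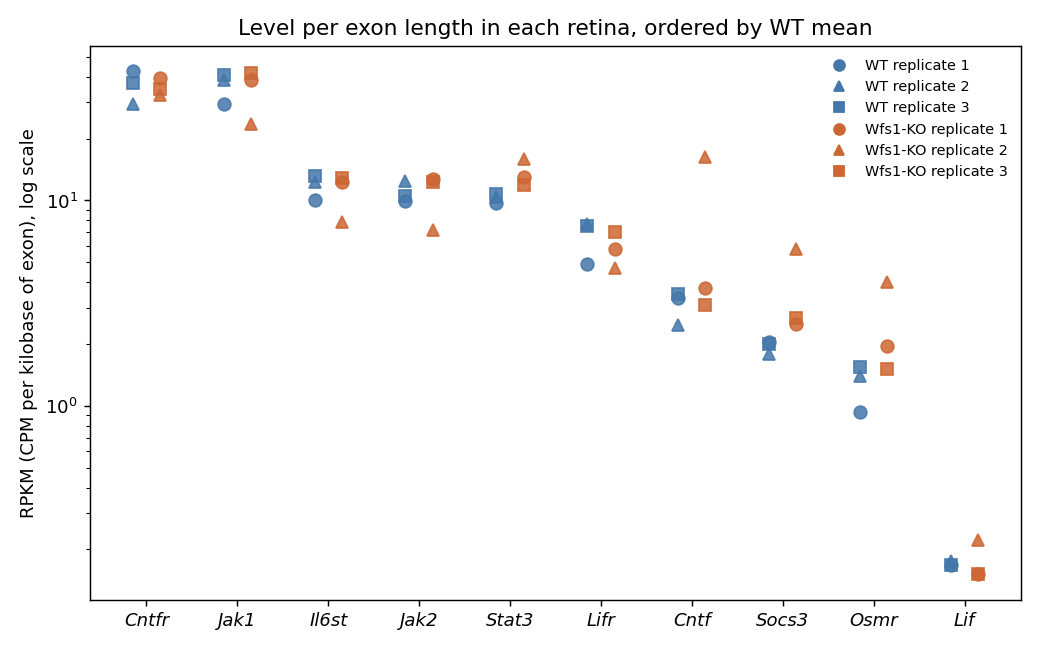
Level of each gene per exon length (RPKM, log scale) in each retina, with genes ordered by their WT mean, WT in blue, Wfs1-KO in orange and a symbol for each replicate number. Cntfr and Jak1 lie highest and Lif lowest in both genotypes, and Wfs1-KO replicate 2 (orange triangles) lies apart for several genes, including Cntf at 16.2 RPKM.

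The comparison of genotypes asked whether RNA of the pathway itself differed in mutant retinas. Stat3, Socs3 and Osmr had higher mean levels in Wfs1-KO retinas, Cntf was high in 1 mutant retina, and the levels of Il6st, Lifr, Cntfr, Jak1, Jak2 and Lif overlapped between genotypes. With edgeR's quasi-likelihood test and Benjamini-Hochberg adjustment over all tested genes, 0 of the 10 genes passed an adjusted p of 0.05, where 0.0108% of all tested genes did, and their adjusted p-values lay between 0.979 and 0.993. DESeq2, with which 0.28% of all tested genes passed, and limma-voom also gave 0. At an unadjusted p under 0.05, 3 of the 10 had higher levels in mutant retinas (Stat3, Socs3 and Osmr), where 2.24% of all tested genes did, and none had lower levels, where 0.566% did. DESeq2 gave 4 at that level, the same 3 and Cntf, where 3.16% of all tested genes had higher levels. Every mutant retina lay above every WT retina for 2 of the 10, Stat3 and Socs3, where 5.01% of all tested genes showed this. Without Wfs1-KO replicate 2, 0 of the 10 passed the adjusted threshold, where 0.125% of all tested genes did, and 0 had an unadjusted p under 0.05, where 5.19% did. Between that pair of mutant retinas and the WT retinas 3 of the 10 did not overlap, Stat3 and Socs3 above and Lif below, where 22.4% of all tested genes did not overlap. Their median log2 fold change was -0.00073, beside 0.02 for all tested genes, and 0.14 without that retina, beside -0.00038.

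**Figure D2:**
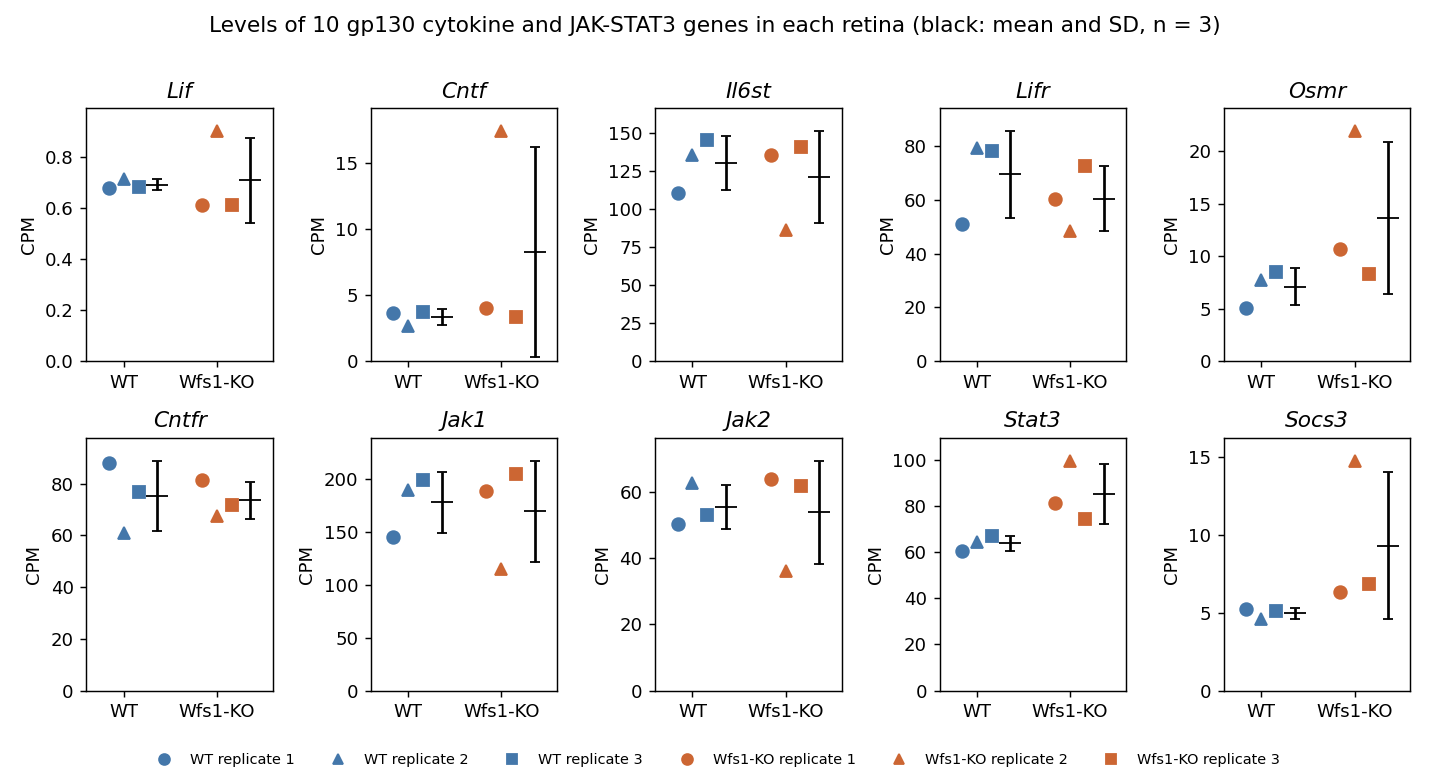
Level of each gene in CPM (linear axis from 0, a separate scale per gene) in the 3 WT (blue) and 3 Wfs1-KO (orange) retinas, with a symbol for each replicate number and mean and SD in black. Only for Stat3 and Socs3 do all 3 mutant points lie above all 3 WT points, and the triangle of Wfs1-KO replicate 2 is the highest or lowest point for 9 of the 10 genes.

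Stat3 (mm10 chr11:100885098-100939540, minus strand) encodes the transcription factor on which these receptors converge. It had 60.3, 64.5 and 66.9 CPM in WT replicates 1, 2 and 3, and 81.4, 99.5 and 74.3 CPM in the Wfs1-KO replicates. The lowest mutant retina was therefore above the highest WT retina. The log2 fold change, Wfs1-KO against WT, was 0.41 (standard error, SE, 0.17), a 1.33-fold ratio, with an unadjusted p of 0.0478 and an adjusted p of 0.979 in edgeR's test. Without Wfs1-KO replicate 2 it was 0.28 (SE 0.13, adjusted p = 0.962, edgeR), and without WT replicate 3, the retina of the other sex, it was 0.43 (SE 0.22). Stat3 shares 72 exonic bases with Stat5a, which lies on the opposite strand, and the strand setting of the counting is not given in the sources used here.

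Socs3 (chr11:117966079-117970047, minus strand) encodes the inhibitor that binds gp130 and Janus kinases and ends the signal. It had 5.24, 4.58 and 5.11 CPM in WT retinas and 6.36, 14.8 and 6.86 CPM in mutant replicates 1, 2 and 3. All mutant retinas were above all WT retinas, and replicate 2 was more than the other mutants together. The log2 fold change was 0.91 (SE 0.36), a 1.87-fold ratio, with an unadjusted p of 0.0382 and an adjusted p of 0.979 in edgeR's test. Without Wfs1-KO replicate 2 it was 0.40 (SE 0.20), a 1.32-fold ratio, and without WT replicate 3 it was 0.90 (SE 0.44). Every mutant retina was above every WT retina for 5.01% of all tested genes and for 2 of the 8 microglia or macrophage markers. These were Cx3cr1, with 5.38 to 6.62 CPM in WT and 8.82, 39.7 and 7.11 CPM in mutant retinas, and P2ry12, with 3.52 to 4.88 CPM in WT and 5.24, 5.30 and 5.49 CPM in mutant retinas. The other 6 overlapped, and 5 of the 8 had negative log2 fold changes without Wfs1-KO replicate 2. Their part in the levels of Stat3 and Socs3 was not tested.

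Because STAT factors bind palindromic DNA elements, the promoters of Stat3 and Socs3, the 2 genes without overlap between genotypes, were read for the letters TTCNNNGAA, which are the same on both strands, and for TTCCNGGAA, which is a special case of them. RefSeq windows on GRCm38.p6 (the mm10 build), 250 bases before to 50 after a transcript start, were found for all 10 genes. Of 32851 such windows of all genes, 8.3% held TTCNNNGAA and 1.15% held TTCCNGGAA, which came to 9.55% and 1.35% of genes. Of the 10 genes, with 16 windows, 1 gene held the first pattern in 1 window, Socs3, and none held the second. The Socs3 stretch lies on the minus strand at chr11:117969452-117969616, upstream of the RefSeq start, outside GENCODE exons and within an intron of a longer annotated transcript, with the match in capitals at -154 to -146 from the RefSeq start, and the Stat3 stretch lies on the minus strand at chr11:100939541-100939790, directly before the gene, with no match.
Socs3: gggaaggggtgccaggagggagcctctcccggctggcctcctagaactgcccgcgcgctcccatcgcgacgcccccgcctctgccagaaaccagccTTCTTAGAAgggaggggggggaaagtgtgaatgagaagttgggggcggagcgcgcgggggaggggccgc
Stat3: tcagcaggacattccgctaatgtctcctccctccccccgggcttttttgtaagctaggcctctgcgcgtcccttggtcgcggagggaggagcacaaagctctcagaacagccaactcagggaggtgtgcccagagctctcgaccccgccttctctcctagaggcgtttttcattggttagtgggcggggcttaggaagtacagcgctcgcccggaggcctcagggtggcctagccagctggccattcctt

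Of the 4 receptor genes, Osmr was the 1 with an unadjusted p under 0.05 on all 6 retinas, and the difference between Osmr and the other receptor genes was not tested. Osmr (chr15:6813577-6874969) encodes the subunit that pairs with gp130 for oncostatin M. It had 5.10, 7.71 and 8.46 CPM in WT retinas and 10.7, 21.9 and 8.29 CPM in mutant replicates 1, 2 and 3. The genotypes overlapped, since mutant replicate 3 lay just below WT replicate 3. The log2 fold change was 0.95 (SE 0.40), a 1.93-fold ratio, with an unadjusted p of 0.0480 and an adjusted p of 0.979 (edgeR), and 0.44 (SE 0.24) without Wfs1-KO replicate 2.

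Il6st (chr13:112464070-112510086), the gene of gp130, had 111, 136 and 145 CPM in WT and 136, 86.4 and 141 CPM in mutant retinas. Lifr (chr15:7090614-7197489), the gene of the LIF receptor, had 51.0, 79.4 and 78.1 CPM in WT and 60.5, 48.6 and 72.5 CPM in mutant retinas. For both, Wfs1-KO replicate 2 was the lowest of the 6 retinas and the other mutants lay within the WT range. The log2 fold changes were -0.11 (SE 0.23) for Il6st and -0.20 (SE 0.24) for Lifr, and 0.08 (SE 0.14) and -0.07 (SE 0.19) without that retina. Cntfr (chr4:41657498-41697089) had 87.8, 60.7 and 76.9 CPM in WT and 81.5, 67.3 and 71.7 CPM in mutant retinas, all 3 within the WT range, and the log2 fold change was -0.03 (SE 0.19), and 0.02 without that retina.

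The balance of receptor subunits was examined as a ratio of RPKM within each retina, 1 of 7 ratios computed after the levels had been seen and given without a test. The ratio of Osmr to Lifr was between 0.184 and 0.205 in WT retinas and was 0.336, 0.852 and 0.216 in Wfs1-KO replicates 1, 2 and 3. All mutant retinas were above all WT retinas, with replicate 3 close to them. The ratio of Osmr to Il6st was 0.0923 to 0.117 in WT and 0.158, 0.507 and 0.117 in mutant retinas. In contrast, the ratio of Lifr to Il6st overlapped, at 0.487 to 0.619 in WT and 0.471, 0.595 and 0.544 in mutant retinas. The ratio of Cntfr to Lifr was 3.86 to 8.69 in WT and 6.80, 6.99 and 4.99 in mutant retinas. The ratio of Socs3 to Stat3 was 0.173 to 0.212 in WT and 0.191, 0.362 and 0.225 in mutant retinas, which also overlapped.

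The ligand genes differed in level and in spread. Cntf (chr19:12763660-12765632), which encodes ciliary neurotrophic factor, a survival factor that astrocytes make, had 3.61, 2.67 and 3.75 CPM in WT and 4.03, 17.4 and 3.34 CPM in mutant replicates 1, 2 and 3. Only Wfs1-KO replicate 2 left the narrow range of the other 5 retinas, at 5.0 times their mean. The log2 fold change of 1.30 (SE 0.64, adjusted p = 0.979, edgeR) became 0.15 (SE 0.25) without that retina. In GENCODE M21 a read-through transcript of the neighbouring gene Zfp91 ends in Cntf and covers 847 of its 1073 exonic bases, whereas the exons that the deposited table gives to Zfp91 cover 0 of them. Reads of that transcript within the Cntf exons cannot be told apart from those of Cntf. Zfp91 had 159 to 215 CPM in WT and 185, 260 and 183 CPM in mutant retinas, and its part in the Cntf counts was not tested. In that retina the blood and the microglia or macrophage marker sums were also the highest of the 6, as was the pigment epithelium sum through Ttr, and their part was not tested.

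Lif (chr11:4257557-4272514), which encodes leukemia inhibitory factor, was near the limit of these libraries, with 12 to 63 counts per retina. It had 0.677, 0.715 and 0.681 CPM in WT and 0.611, 0.900 and 0.613 CPM in mutant retinas, and the log2 fold change was 0.03 (SE 0.38), and -0.18 (SE 0.41) without Wfs1-KO replicate 2. Both values were smaller than their standard errors, which hold the spread between mice as well as counting error. A small difference of Lif could therefore not be resolved, and the smallest one that could be was not determined. The ratio of Cntf to Lif, per length, was 14.1 to 20.8 in WT and 24.9, 73.0 and 20.6 in mutant retinas.

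The kinase genes overlapped between genotypes. Jak1 (chr4:101152367-101265282) had 145, 190 and 199 CPM in WT and 189, 115 and 205 CPM in mutant retinas, and the log2 fold change was -0.07 (SE 0.26). Jak2 (chr19:29251828-29313080), which transmits the signal beside Jak1, had 50.1, 62.7 and 53.1 CPM in WT and 63.8, 35.9 and 61.7 CPM in mutant retinas, and the log2 fold change was -0.04 (SE 0.25). For both, Wfs1-KO replicate 2 was the lowest retina, and the values without it were 0.14 (SE 0.15) for Jak1 and 0.18 (SE 0.14) for Jak2. The ratio of Jak2 to Jak1, per length, was 0.259 to 0.336 in WT and between 0.293 and 0.330 in mutant retinas.

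Wfs1-KO replicate 2 was the highest of the 6 retinas for 5 of the 10 genes (Lif, Cntf, Osmr, Stat3 and Socs3), where it was the highest for 38.4% of all tested genes. It was the lowest for 4 (Il6st, Lifr, Jak1 and Jak2), where it was the lowest for 36.8%. Both shares are near those of all tested genes. Against the mean of the other 5 retinas it had 2.72 times the Osmr, 2.63 times the Socs3 and 1.43 times the Stat3 level, but 0.647 times the Il6st, 0.621 times the Jak1 and 0.617 times the Jak2 level. The other mutant retinas together had 1.34 times the mean WT level of Osmr, 1.33 times that of Socs3 and 1.22 times that of Stat3.

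**Figure D3:**
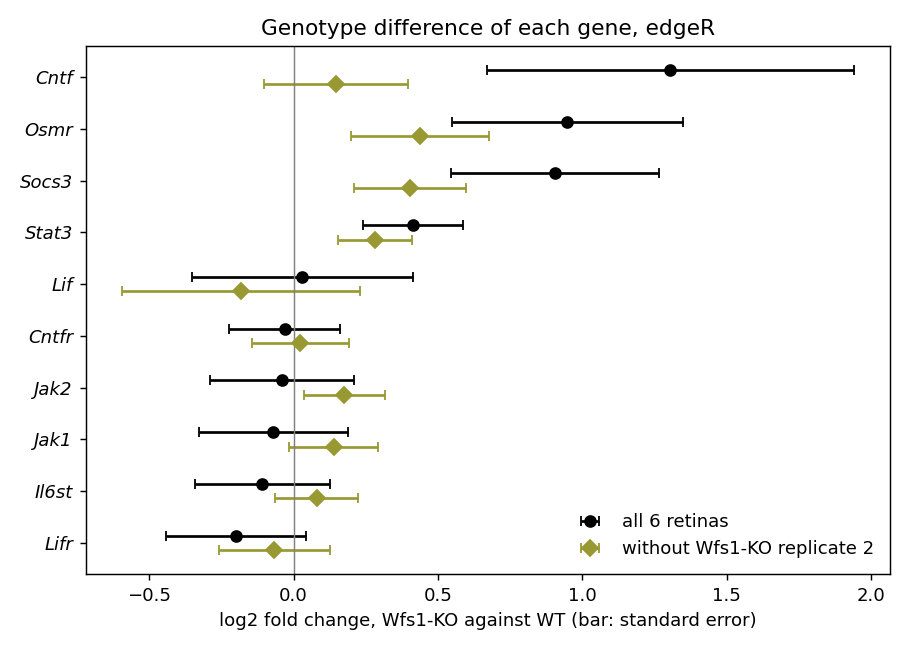
Log2 fold change of each gene, Wfs1-KO against WT, with its standard error, for all 6 retinas (black circles) and without Wfs1-KO replicate 2 (olive diamonds). Stat3 moves least among the 4 genes at the top, from 0.41 to 0.28, whereas Cntf moves from 1.30 to 0.15.

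The rest of the pathway was read from lists of other ligands and receptors, other JAK and STAT genes, and other inhibitors and phosphatases. Of 12 other ligand and receptor genes, 7 passed the low-count filter, 0 had an adjusted p under 0.05 in edgeR's test and 0 had an unadjusted p under 0.05 by edgeR or DESeq2. Of all tested genes, 0.0108% passed the adjusted threshold with edgeR. At an unadjusted p under 0.05, 2.24% had higher and 0.566% lower levels with edgeR, and 3.16% had higher levels with DESeq2. With so few genes in the list, a count of 0 is near these shares. Il6, the founding cytokine of the family, had 2, 16 and 2 counts in WT and 2, 0 and 0 counts in mutant retinas, Osm had 0 to 6 counts and Il27 had 0 to 4 counts, and these 3 were not tested. Ctf1, the gene of cardiotrophin-1, had 3.32 to 3.91 CPM in WT and 3.98, 4.71 and 4.52 CPM in mutant retinas, with a log2 fold change of 0.26 (SE 0.23), and 0.20 without Wfs1-KO replicate 2. Il6ra, the gene of the interleukin-6 receptor, had a log2 fold change of 0.97 (SE 0.67), and 0.03 without Wfs1-KO replicate 2. Il11ra1, the interleukin-11 receptor gene, had 0.64 (SE 0.42), and -0.01 without that retina, and its reads could be shared with a close copy. All 7 tested genes of this list were highest in Wfs1-KO replicate 2, where 38.4% of all tested genes were, and their median log2 fold change of 0.62 became -0.03 without it.

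Of 8 other JAK and STAT genes, 7 were tested, and 0 had an unadjusted p under 0.05 (edgeR and DESeq2). With edgeR 2.24% of all tested genes had higher and 0.566% lower levels at that threshold. The median log2 fold change of the list was 0.06, and 0.10 without Wfs1-KO replicate 2. Stat5a had 4.25 to 5.93 CPM in WT and 6.35, 7.29 and 6.56 CPM in mutant retinas, and the log2 fold change was 0.39 (SE 0.23), and 0.32 without Wfs1-KO replicate 2. Jak3, a kinase of blood cells, had 0.72 (SE 0.44), and 0.26 without it. All 15 other inhibitor and phosphatase genes were tested, and 0 had an unadjusted p under 0.05 (edgeR and DESeq2), beside the same shares of all tested genes. Their median was 0.0035, and 0.03 without that retina. Their largest log2 fold changes were 0.97 (SE 0.71) for Ptpn6, a phosphatase of blood cells, 0.65 (SE 0.46) for Socs2 and 0.43 (SE 0.44) for Socs1, which became 0.03, -0.10 and 0.05 without Wfs1-KO replicate 2. Socs3 was the inhibitor gene with an unadjusted p under 0.05 on all 6 retinas (edgeR), where 2.24% of all tested genes had higher levels at that threshold. Its p was above 0.05 with limma-voom, with the replicate block, without any one WT retina and without Wfs1-KO replicate 2. The difference between Socs3 and the other inhibitor genes was not tested.

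Finally, a list of 24 genes known to be raised by STAT3 was examined. Several of them, among them Gfap, Lcn2, Edn2, Vim, Fgf2, Vegfa, C1s1 and C1rl, were chosen by the study on these retinas or on mice of the same line, so the list is not independent evidence of a direction. All 24 were tested, and 0 passed an adjusted p of 0.05 in edgeR's test, where 0.0108% of all tested genes did. At an unadjusted p under 0.05, 8 had higher levels in mutant retinas, where 2.24% of all tested genes did. At that threshold 1, Fos, had lower levels, where 0.566% did. The 8 were Gfap, Lcn2, Serpina3n, Bcl3, Fgf2, Timp1, A2m and Edn2. The other 15 had log2 fold changes between -0.32 (Vegfa) and 1.63 (Cebpd), among them Birc5 with 0.76, Myc with 0.48, Mcl1 with 0.03 and Bcl6 with -0.04. The median of the list was 0.68, and 0.35 without Wfs1-KO replicate 2, beside 0.02 and -0.00038 for all tested genes. In that retina 18 of the 24 had their highest level, where 38.4% of all tested genes did.

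Lcn2, the gene of the secreted iron-binding protein lipocalin 2, had a log2 fold change of 4.07 (SE 1.18), and 1.42 (SE 0.24) without Wfs1-KO replicate 2. Bcl3, a nuclear partner of NF-κB, had 0.331, 0.546 and 0.114 CPM in WT and 0.990, 5.42 and 0.976 CPM in mutant retinas. The WT values came from 22, 26 and 2 counts, and 3 counts corresponded to 0.170 CPM in WT replicate 3. Every mutant retina was above every WT retina, where 5.01% of all tested genes showed this. The log2 fold change was 2.80 (SE 0.86, adjusted p = 0.979, edgeR), and 1.44 (SE 0.52) without Wfs1-KO replicate 2. Edn2, the gene of endothelin 2, had 2.72 (SE 0.74), and 1.5 (SE 0.33) without it.

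Serpina3n and Timp1 are named here after their values were seen. Serpina3n, a protease inhibitor gene of reactive astrocytes, had 19.6, 19.7 and 22.4 CPM in WT and 50.3, 122.7 and 46.4 CPM in mutant replicates 1, 2 and 3. No mutant retina came near the WT range. Without Wfs1-KO replicate 2 Serpina3n was the 1 gene of the list that passed (log2 fold change 1.23, SE 0.14, adjusted p = 0.00490, edgeR's test), where 0.125% of all tested genes did. With all 6 retinas the log2 fold change was 1.83 (SE 0.39, adjusted p = 0.979, edgeR, and 0.00723 with DESeq2). Timp1, a metalloproteinase inhibitor gene, had 2, 4 and 2 counts in WT and 53, 210 and 22 counts in mutant retinas, with an adjusted p of 0.979 in edgeR's test and 0.00662 with DESeq2. Without Wfs1-KO replicate 2 its adjusted p was 0.367 in edgeR's test. With DESeq2, 3 of the 24 passed on all 6 retinas, namely Serpina3n, Timp1 and Edn2, where 0.28% of all tested genes did. DESeq2 gave no p for Lcn2 on all 6 retinas, so that it is not in this count, and an adjusted p of 0.000753 without Wfs1-KO replicate 2, an alternative chosen after the data were seen. Lens and oligodendrocyte marker sums were also higher in every mutant retina than in any WT retina. So were 2 of the 8 microglia or macrophage markers, Cx3cr1 and P2ry12, where 5.01% of all tested genes were. The other 6 overlapped, and the part of these sums and markers in the levels of the target genes was not tested.

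**Figure D4:**
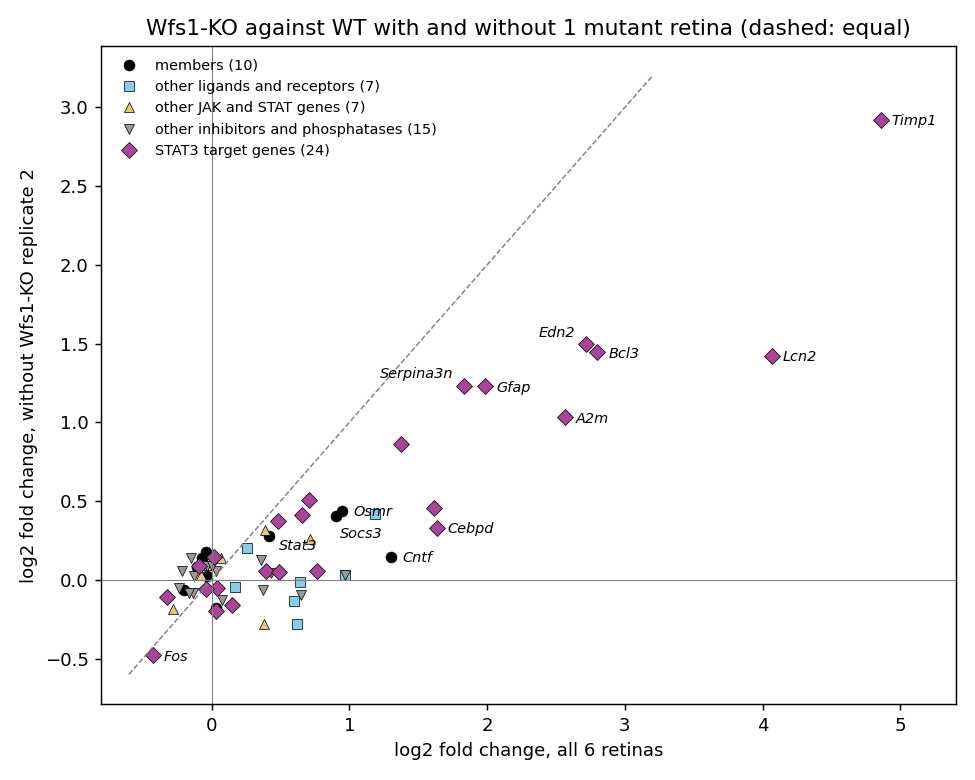
Log2 fold change, Wfs1-KO against WT, with all 6 retinas (horizontal axis) and without Wfs1-KO replicate 2 (vertical axis) for the tested genes of each list (the 10 genes chosen by name are marked members), with the number of genes in brackets and a dashed line where both are equal. STAT3 target genes such as Lcn2 (4.07 and 1.42) and Edn2 (2.72 and 1.5) lie far to the right but above 0 on both axes, whereas Fos lies below 0 on both.

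The promoter windows of the target genes were read in the same way, and 20 of the 24 genes had an entry. TTCNNNGAA was in 3 of the 20 (15%), where 9.55% of all genes with an entry had it. All 3, Gfap, Icam1 and Bcl6, also held TTCCNGGAA, where 1.35% of all genes did. The first match in each gene is shown with its flanks, the 9 matching bases in capitals, because these were the target genes with a match. The Gfap match spans the RefSeq start (chr11:102897183-102897212, minus strand), and the Icam1 match begins at -42 (chr9:21015888-21015917, plus strand). The first Bcl6 match begins at -168 (chr16:23981432-23981461, minus strand). Bcl6 had further TTCNNNGAA matches at -122 and -88 in the same window and at -118 in another window. Of these further matches, only the one at -88 was also TTCCNGGAA.
Gfap: atgggggtgcTTCCAGGAAgtcaggggcag
Icam1: ggcgcgaggtTTCCCGGAAagtggccccga
Bcl6: aggccgcggcTTCCTGGAAagttacttctc

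Gfap, the intermediate filament gene of reactive glia, had 11.2 to 19.2 CPM in WT and 47.5, 104 and 21.2 CPM in mutant retinas, with a log2 fold change of 1.99 (SE 0.55, adjusted p = 0.979, edgeR), and 1.23 (SE 0.31, adjusted p = 0.379, edgeR) without Wfs1-KO replicate 2. Icam1, a leukocyte adhesion gene, had 0.933, 1.24 and 1.02 CPM in WT and 1.98, 2.23 and 1.02 CPM in mutant retinas, and the log2 fold change was 0.71 (SE 0.40), and 0.51 without that retina. Bcl6, a transcriptional repressor gene, had 27.8 to 29.7 CPM in WT and 26.7 to 28.8 CPM in mutant retinas, and the log2 fold change was -0.04 (SE 0.15), and -0.06 without that retina. None of the 3 passed an adjusted p of 0.05 in edgeR's test, and a match is a description of letters, not of a site.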

How the data were processed

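RNA-seq counts of 3 WT and 3 Wfs1-KO retinas were analysed. Per the labels, the authors used Trimmomatic 0.39, STAR 2.5.3a on mm10 and featureCounts 1.6.4 (the methods name other versions), and deposited raw counts per gene, with the exon length of each gene as another value beside them. Columns were matched to samples by genotype letter (C for control, W for Wfs1) and number, and 2 further library columns, which fit none of the listed samples by name, were left unused. No pair of libraries agreed within sampling noise.

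The quasi-likelihood test of edgeR 4.0.16 (R 4.3.3, with TMM factors, default filter on low counts) had genotype as its only term, and p-values were adjusted by Benjamini-Hochberg over 18547 genes. The standard error is the log2 fold change divided by the square root of F. RPKM are CPM per kilobase of exon. Unlike the DESeq2 test on RPKM that the methods name, counts were tested as deposited. Alternatives were DESeq2 1.42.0, limma-voom (limma 3.58.1), RLE and upper-quartile factors, other filters, a replicate block and each retina left out. The p-values measure the spread between mice, and floors and totals cover counting error only. The procedure was tested on simulated data.

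The genes, lists and markers were chosen with earlier results of these data known. Genes named are the 10 members, Wfs1, the 3 largest log2 fold changes of each list among genes with at least 50 counts on average, any gene past the threshold, and the 3 genes most like Stat3 and Socs3, but 1 gene that this rule names is not reported here. Others are named as chosen after their values were seen. Gene models were GENCODE M21, and promoters came from RefSeq on GRCm38.p6, the same build.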

Additional observations from a re-analysis of the deposited data

How the results depend on the processing

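The count of the 10 genes past an adjusted p of 0.05 stayed at 0 under all 14 alternatives. The number with an unadjusted p under 0.05, 3 with all retinas, was 1 with RLE factors, 0 with limma-voom, 0 with the replicate block and 0 to 3 with 1 retina left out (0 without any one WT retina or without Wfs1-KO replicate 2), and 0 with DESeq2 without that retina, an alternative chosen after the data were seen. The median log2 fold change of the 10 genes ranged from 0.0021 to 0.14 with 1 retina left out, the 0.14 without Wfs1-KO replicate 2, and was also 0.14 with DESeq2 without it. Of all genes, 2 passed, against 9 without a filter, 52 with DESeq2, 94 with DESeq2 without Wfs1-KO replicate 2, 1 with the replicate block and 0 to 24 with 1 retina left out (0 without any one WT retina, 1 without Wfs1-KO replicate 1 or 3, 24 without replicate 2). Of the other pathway and target genes 3 passed with DESeq2, 5 with DESeq2 without Wfs1-KO replicate 2 and 0 to 1 with 1 retina left out. STAT3 targets with an unadjusted p under 0.05 numbered 9, and 5 to 12 with 1 retina left out (5 without WT replicate 1). The causes were not tested.

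Stat3, Socs3, Osmr and Cntf had positive log2 fold changes, and Lifr a negative one, in all 14 alternatives, from 0.28 to 0.50 for Stat3, 0.40 to 1.12 for Socs3, 0.44 to 1.20 for Osmr, 0.15 to 1.68 for Cntf and -0.38 to -0.07 for Lifr. The sign changed for 7 named genes. With 1 retina left out the values ranged from -0.18 to 0.13 for Lif, -0.23 to 0.080 for Il6st, -0.17 to 0.095 for Cntfr, -0.23 to 0.14 for Jak1, -0.18 to 0.18 for Jak2, -0.014 to 0.90 for Il11ra1 and -0.10 to 0.93 for Socs2. With DESeq2 without Wfs1-KO replicate 2 they were -0.18 for Lif, 0.079 for Il6st, 0.022 for Cntfr, 0.14 for Jak1, 0.18 for Jak2, -0.014 for Il11ra1 and -0.10 for Socs2. Lif was -0.0039 without a filter and -0.038 with limma-voom.

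The replicate numbers name different mice. Deviations of same-numbered retinas from their group means correlated at -0.23, -0.11 and 0.08 across genes for replicates 1, 2 and 3. No retina correlated best with the retina of its own number in the other genotype, so the numbers were not taken to pair the retinas. With the replicate block, 0 of the 10 genes had an unadjusted p under 0.05 and 1 gene of all passed.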

Other observations

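Among 15097 tested genes with at least 50 counts on average, those whose centred log2 CPM followed Stat3 and Socs3 most closely over the 6 retinas were named by the root mean square difference. Each gene so named was highest in Wfs1-KO replicate 2, where 38.4% of all tested genes were. The 3 nearest to Stat3 were Nln, a peptidase gene (0.0553 on the log2 scale), Gm15728 (0.0568) and Dera, an aldolase gene of deoxyribose breakdown (0.0571). Nln had 7.18, 7.99 and 7.83 CPM in WT and 10.8, 12.2 and 9.01 CPM in mutant retinas. The 3 nearest to Socs3 were 1700018L02Rik (0.0361), Uap1l1 (0.0871) and Bambi, a decoy receptor gene of the TGF-β family (0.0899). Bambi had 5.15, 4.88 and 4.99 CPM in WT and 7.46, 14.8 and 7.17 CPM in mutant retinas, with a log2 fold change of 0.97, and 0.54 without Wfs1-KO replicate 2. These are descriptions of likeness in 6 libraries, without a test.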
